A study of Rattus norvegicus with 20 samples.

Results

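The choroid plexus expresses a set of genes that carry bicarbonate across its epithelium, and 4 of them were followed here across lean and obese rats with and without injections: the transporter genes Slc4a2 (ENSRNOG00000014347), Slc4a5 (ENSRNOG00000010378) and Slc4a10 (ENSRNOG00000005307), and the gene of carbonic anhydrase 2, Car2 (ENSRNOG00000009629). They were chosen by gene identifier among the 32883 genes listed for each rat. The rule did not use their measured levels, but the choice was made with earlier results of these data known. RNA was sequenced from the choroid plexus of the lateral and the fourth ventricles of 20 female Zucker rats aged 16 weeks. The lean group (n = 6) and the obese group (n = 6) received no injection, the lean control group (n = 4) received the sesame oil vehicle, and the obese + TT group (n = 4) received 1 mg testosterone propionate in the oil 2 times a week over 4 weeks. Per the study's methods, lean rats were +/fa and obese rats fa/fa for a leptin receptor defect, so the lean rats were heterozygous carriers and not wild-type. The comparisons of obese with lean and of obese + TT with lean control address whether obesity, alone or with testosterone, was accompanied by altered transporter expression. No group of lean rats with testosterone or of obese rats with oil alone was analysed here, so obesity and testosterone cannot be told apart in the latter comparison.

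The choroid plexus epithelium secretes cerebrospinal fluid (CSF), and bicarbonate is among the ions it moves from the blood side to the ventricle. The anion exchanger AE2, encoded by Slc4a2, exchanges Cl- for HCO3- at the blood-facing membrane, and the Na+-driven bicarbonate transporter encoded by Slc4a10 (NBCn2, also named NCBE) brings HCO3- in with Na+ at the same membrane. The electrogenic cotransporter encoded by Slc4a5 (NBCe2) moves Na+ and HCO3- across the ventricle-facing membrane, and the cytosolic enzyme encoded by Car2 interconverts CO2 and HCO3- inside the cell.

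The 250 bases before the gene start are shown for the transporter genes, and no such sequence was available for Car2. The sequences shown come from RefSeq (build GRCr8), written 5′ to 3′ on the strand of the gene, whereas the expression files used Rnor_6.0. Capitals mark matches to the CCAAT box (CCAAT) and the TATA box core (TATAAA) on either strand.
Slc4a2, chr4:11645403-11645652, minus strand: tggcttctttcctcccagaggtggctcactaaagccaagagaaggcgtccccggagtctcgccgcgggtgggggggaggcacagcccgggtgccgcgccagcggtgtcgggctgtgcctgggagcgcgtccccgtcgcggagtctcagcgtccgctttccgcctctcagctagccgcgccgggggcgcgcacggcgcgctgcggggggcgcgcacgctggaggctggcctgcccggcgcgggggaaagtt
Slc4a5, chr4:117283044-117283293, plus strand: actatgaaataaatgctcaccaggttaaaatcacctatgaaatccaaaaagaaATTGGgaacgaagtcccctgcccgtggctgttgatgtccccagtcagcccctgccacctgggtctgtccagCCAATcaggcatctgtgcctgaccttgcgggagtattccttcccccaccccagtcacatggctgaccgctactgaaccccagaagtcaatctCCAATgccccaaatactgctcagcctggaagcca
Slc4a10, chr3:67073653-67073902, plus strand: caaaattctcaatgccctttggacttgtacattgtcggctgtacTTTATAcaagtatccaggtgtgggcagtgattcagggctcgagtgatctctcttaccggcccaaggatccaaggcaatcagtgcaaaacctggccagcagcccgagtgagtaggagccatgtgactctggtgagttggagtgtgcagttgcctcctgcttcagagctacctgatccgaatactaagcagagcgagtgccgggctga
The Slc4a2 sequence was rich in G and C (74.4%), whereas the Slc4a5 (52.8%) and Slc4a10 (52.4%) sequences lay near the median of all 33469 RefSeq rat promoters (51.2%). CCAAT occurred 3 times in the Slc4a5 sequence and in neither of the other two, against 34.0% of all promoters with a match. TATAAA occurred 1 time, in the Slc4a10 sequence on the opposite strand, against 12.9% of all promoters. The E-box CANNTG occurred 3 times in Slc4a5, 3 times in Slc4a10 and not in Slc4a2, and in 65.5% of all promoters. The other 3 motifs searched on both strands had no match in these windows, the GC box core GGGCGG (30.5% of all promoters), the cAMP response element TGACGTCA (1.6%) and the androgen response element half-site AGAACA (17.5%). No motif was thus shared by the sequences of all these transporter genes, and a match or its absence describes only the letters of the window.

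All 4 genes were highly expressed in every rat. In TPM (transcripts scaled to a fixed library total and per transcript length, so that genes can be compared), Car2 was above Slc4a5, Slc4a5 above Slc4a2 and Slc4a2 above Slc4a10 in 20 of 20 rats. Car2 ranked between the 40th and the 62nd highest gene of a rat, Slc4a5 between 112 and 341, Slc4a2 between 147 and 373, and Slc4a10 between 230 and 479. Neighbours in this order did not overlap within any group, with the exception of Slc4a5 and Slc4a2 in the obese group. The tissue carried its defining markers: 12 of 12 listed epithelial genes were detected, and transthyretin (Ttr), the main secreted protein of this epithelium, took up 31.2 to 39.3% of the TPM of the untreated rats and 25.8 to 30.5% of that of the injected rats.

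Slc4a2, the blood-facing anion exchanger, had a lowest, median and highest level of 289, 335 and 350 TPM in the lean rats and of 269, 294 and 379 TPM in the obese rats. The lean control rats held 531, 540, 500 and 593 TPM (rats 13 to 16) and the obese + TT rats 551, 555, 558 and 534 TPM (rats 17 to 20). Lean and obese rats overlapped, as did lean control and obese + TT rats, while each injected rat was above each untreated rat. Between rats of the same genotype, 34% (lean) and 34.1% (obese) of all genes were likewise higher in the injected rats without overlap. The group means were 329 ± 24.0 (SD, n = 6), 306 ± 41.0 (n = 6), 541 ± 38.7 (n = 4) and 549 ± 10.8 TPM (n = 4) in the order lean, obese, lean control and obese + TT.

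Slc4a10, the Na+-driven transporter, ranged from 191 through a median of 218 to 255 TPM in the lean rats and from 203 through 218 to 256 TPM in the obese rats. Its level was 350, 313, 316 and 330 TPM in the lean control rats and 340, 345, 369 and 387 TPM in the obese + TT rats. The untreated groups overlapped over most of their range, and 2 of 4 obese + TT rats lay above all lean control rats. The means were 220 ± 21.7 (SD, n = 6), 223 ± 21.6 (n = 6), 327 ± 17.0 (n = 4) and 360.4 ± 22.0 TPM (n = 4) in the same order of groups.

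Slc4a5, the ventricle-facing cotransporter, ranged from 378 through a median of 414 to 444 TPM in the lean rats and from 290 through 353 to 432 TPM in the obese rats. The lean control rats had 701, 635, 611 and 704 TPM and the obese + TT rats 660, 587, 699 and 661 TPM. Of the obese rats, 5 of 6 lay below all lean rats, and rat 11 lay within the lean range. The separation was narrow, with obese rat 10 at 376.4 TPM and lean rat 6 at 377.7 TPM. The means were 412 ± 26.6 (SD, n = 6), 358.0 ± 46.5 (n = 6), 663 ± 47.1 (n = 4) and 652 ± 47.1 TPM (n = 4).

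Car2, the cytosolic enzyme, ranged from 1354 through a median of 1506 to 1656 TPM in the lean rats and from 1205 through 1418 to 1610 TPM in the obese rats. It reached 1207, 1406, 1591 and 1378 TPM in the lean control rats and 1316, 1345, 1474 and 1473 TPM in the obese + TT rats. All groups overlapped for Car2. The means were 1496 ± 127 (SD, n = 6), 1411 ± 173 (n = 6), 1395 ± 157 (n = 4) and 1402 ± 83.3 TPM (n = 4).

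**Figure D1:**
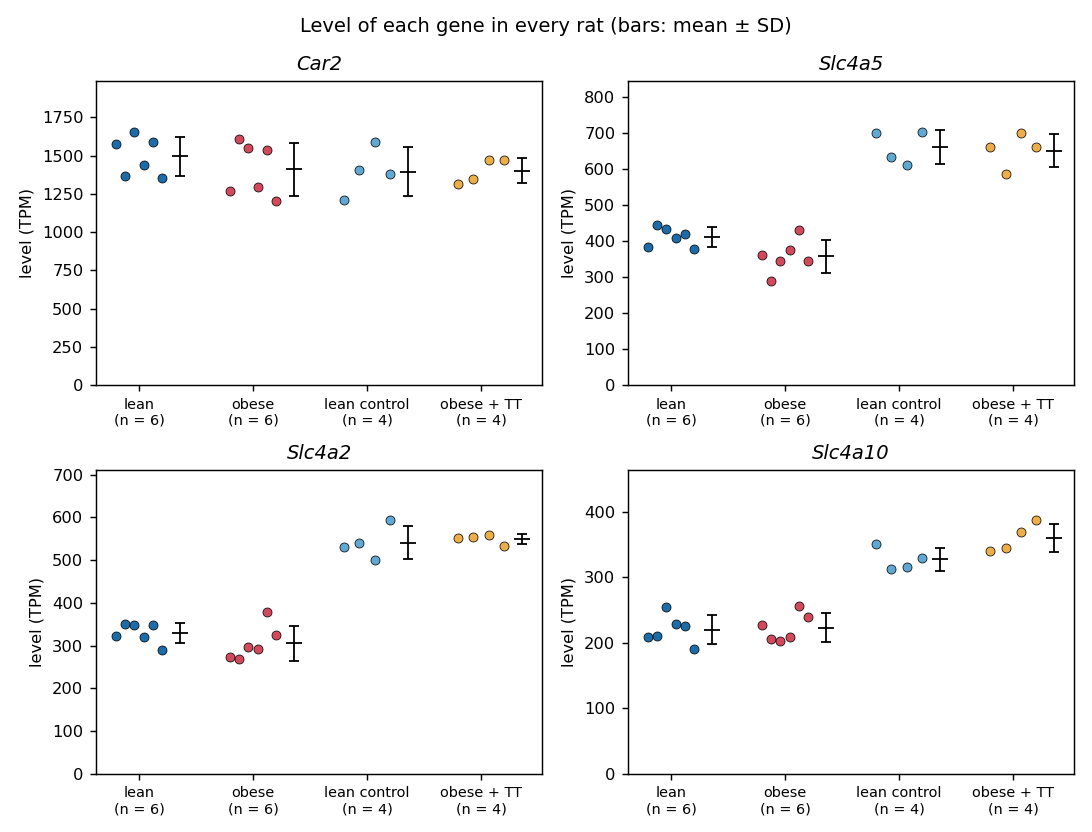
Level of Car2, Slc4a5, Slc4a2 and Slc4a10 in TPM (vertical axes, from 0) in each rat of the lean, obese, lean control and obese + TT groups; points are rats and the bars beside them give the mean ± SD. The transporter genes were higher in each of the 8 injected rats than in each of the 12 untreated rats, whereas the Car2 levels of all groups overlapped.

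The spread between rats is given by group without a test. The coefficient of variation of Slc4a2 was 7.29% in the lean, 13.4% in the obese, 7.15% in the lean control and 1.96% in the obese + TT rats, and that of Slc4a5 was 6.47%, 13.0%, 7.11% and 7.22%. In the same order it was 9.86%, 9.67%, 5.2% and 6.11% for Slc4a10 and 8.48%, 12.3%, 11.3% and 5.94% for Car2. Over the 682 genes with at least 100 TPM in all rats, the median coefficient of variation was 8.09%, 8.77%, 7.10% and 6.09%. The wide obese spread of Slc4a2 and Slc4a5 involved rat 11, which had the highest level of the obese group for all 3 transporter genes (379 TPM of Slc4a2, 432 TPM of Slc4a5 and 256 TPM of Slc4a10). At the other end lay rat 8, the lowest obese rat for Slc4a2 (269 TPM) and for Slc4a5 (290 TPM).

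Obesity without treatment was not accompanied by a called change in any of the 4 genes. With limma on log2(TPM + 0.1) and Benjamini-Hochberg adjustment, 0 of 15176 tested genes passed an adjusted p of 0.05 (0%), and 1466 (9.66%) had an unadjusted p under 0.05. The paper, using DESeq2 on read counts, did report differentially expressed genes here and in obese + TT against lean control rats. The counts of 0 in these comparisons therefore hold for limma on TPM only. Slc4a5 was the member with such an unadjusted p, with a mean 13.0% lower in TPM in the obese rats (log2 fold change -0.21 ± 0.08 SE, 95% interval -0.38 to -0.04, unadjusted p = 0.0217, limma adjusted p = 0.438). The exact two-sided permutation test over the 12 rats gave p = 0.0303 for Slc4a5, where 0.00216 is the smallest p these groups allow. The Slc4a5 difference was -0.26 without obese rat 11 (limma adjusted p = 0.267) and -0.15 without obese rat 8 (adjusted p = 0.532).

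The differences of the other members were smaller. Slc4a2 differed by -0.11 ± 0.08 on the log2 scale (95% interval -0.29 to 0.06, limma adjusted p = 0.707, exact permutation p = 0.240), and Car2 by -0.09 ± 0.08 (-0.27 to 0.09, limma adjusted p = 0.777, exact permutation p = 0.323). Slc4a10 differed by 0.02 ± 0.08 (-0.14 to 0.19, limma adjusted p = 0.967, exact permutation p = 0.801). Across these 3 genes the intervals reached from 0.818-fold to 1.14-fold, and the missed threshold does not show that the groups were alike. In bulk tissue, a lower level from fewer cells of a type and from less RNA per cell cannot be told apart.

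In obese rats given testosterone against lean control rats, no change was called in any of the 4 genes by the same test. Missing the threshold with 4 rats per group does not show that the groups were alike. Of 15259 genes tested with limma, 0 passed an adjusted p of 0.05 (0%) and 1134 (7.43%) had an unadjusted p under 0.05, none of them a member, and 25 genes passed the threshold without lean control rat 13. Slc4a10 was 10.1% higher in mean TPM in the obese + TT rats (log2 fold change 0.14 ± 0.06, 95% interval -0.00 to 0.28, unadjusted p = 0.0517, limma adjusted p = 0.671). The exact permutation test gave p = 0.0857 for Slc4a10, where 8 rats allow no p below 0.0286. Slc4a2 differed by 0.02 ± 0.06 (-0.11 to 0.16, limma adjusted p = 0.955), Slc4a5 by -0.02 ± 0.07 (-0.19 to 0.14, adjusted p = 0.966) and Car2 by 0.01 ± 0.09 (-0.19 to 0.21, adjusted p = 0.986). The signs of the latter 3 differences depended on the scaling or on single rats. One library of this set stood apart: lean control rat 14 had the fewest genes above 0 (14968, against 15609 to 16860 in the other injected rats).

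The obesity difference in the injected set was set against that in the untreated set as an interaction over all 20 libraries. No gene of 15406 passed an adjusted p of 0.05 in limma (0%), and 1288 (8.36%) had an unadjusted p under 0.05, among them no member. The interaction was 0.14 ± 0.11 for Slc4a2, 0.18 ± 0.12 for Slc4a5, 0.12 ± 0.11 for Slc4a10 and 0.10 ± 0.13 for Car2 on the log2 scale, with limma adjusted p between 0.716 and 0.875. A dependence of the obesity difference on the set of rats was thus not shown for these genes. Without lean control rat 13, 14 genes passed the threshold.

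The transporter genes were higher in the injected than in the untreated rats of the same genotype, and Car2 was not. In lean control against lean rats, Slc4a2 was 1.64-fold (log2 0.72 ± 0.07 SE, 95% interval 0.56 to 0.87), Slc4a5 1.61-fold (0.69 ± 0.07, 0.54 to 0.83) and Slc4a10 1.49-fold (0.58 ± 0.08, 0.41 to 0.74) higher, with limma adjusted p of 3.5e-06, 3.4e-06 and 3.8e-05. This was a comparison in which 8925 of 15326 genes (58.2%) were called and 41.7% were called higher, and 3 of 4 members are too few to be set apart from that share. None of these 3 genes overlapped between the groups, as was the case for 34% of all genes in this direction, and the exact permutation p of each was 0.00952, the smallest that 4 against 6 rats can give.

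In obese + TT against obese rats, Slc4a2 was 1.81-fold (log2 0.86 ± 0.09, 95% interval 0.66 to 1.05), Slc4a5 1.83-fold (0.87 ± 0.10, 0.66 to 1.08) and Slc4a10 1.62-fold (0.69 ± 0.08, 0.53 to 0.86) higher, with limma adjusted p of 1.1e-05, 1.5e-05 and 1.6e-05. Here 8941 of 15389 genes (58.1%) were called, 41.7% of all genes higher, and the 3 transporter genes again did not overlap between groups (34.1% of all genes in this direction). The exact permutation p was 0.00952 for each. The comparisons of obese + TT with obese and of lean control with lean use different rats, and both set injected against untreated rats. The injections, the testosterone in the obese rats and anything else that differed between these sets of rats cannot be told apart.

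The median gene moved in these comparisons as well, by 0.24 in lean control against lean rats and by 0.25 in obese + TT against obese rats on the log2 scale. Relative to this median, Slc4a2 was 0.47 and 0.61 higher, Slc4a5 0.44 and 0.63 higher and Slc4a10 0.33 and 0.45 higher. Among the 917 genes averaging 100 TPM or more, the median difference was -0.08 in both comparisons. The log2 fold change of Slc4a2 exceeded that of 91.6% and 92.9% of these abundant genes, that of Slc4a5 90.4% and 93.3%, and that of Slc4a10 88.8% and 89.9%. Among all genes tested, these shares were 76% and 82.2% for Slc4a2, 74.8% and 82.9% for Slc4a5, and 69.3% and 75.4% for Slc4a10. With each library scaled by its median ratio to the mean library, 46% and 46.6% of the called genes were higher, against 71.6% and 71.8% on the TPM scale. On that scale the differences of the transporter genes were smaller and remained called, with 0.41 and 0.56 for Slc4a2, 0.38 and 0.58 for Slc4a5 and 0.27 and 0.40 for Slc4a10.

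Car2 had a log2 fold change of -0.10 ± 0.09 in lean control against lean rats (95% interval -0.30 to 0.09, limma adjusted p = 0.343, exact permutation p = 0.305). In obese + TT against obese rats it was -0.00 ± 0.09 (-0.20 to 0.20, limma adjusted p = 0.989). Relative to the median gene it lay 0.35 and 0.25 lower. The call for Car2 depended on the scaling: with the median ratio scaling it was -0.41 (limma adjusted p = 0.00138) and -0.30 (adjusted p = 0.0228), and on the FPKM scale it was -0.36 (adjusted p = 0.00372) and -0.28 (adjusted p = 0.0303). Without Ttr in the total, it was -0.21 (adjusted p = 0.0316) and -0.16 (adjusted p = 0.113).

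**Figure D2:**
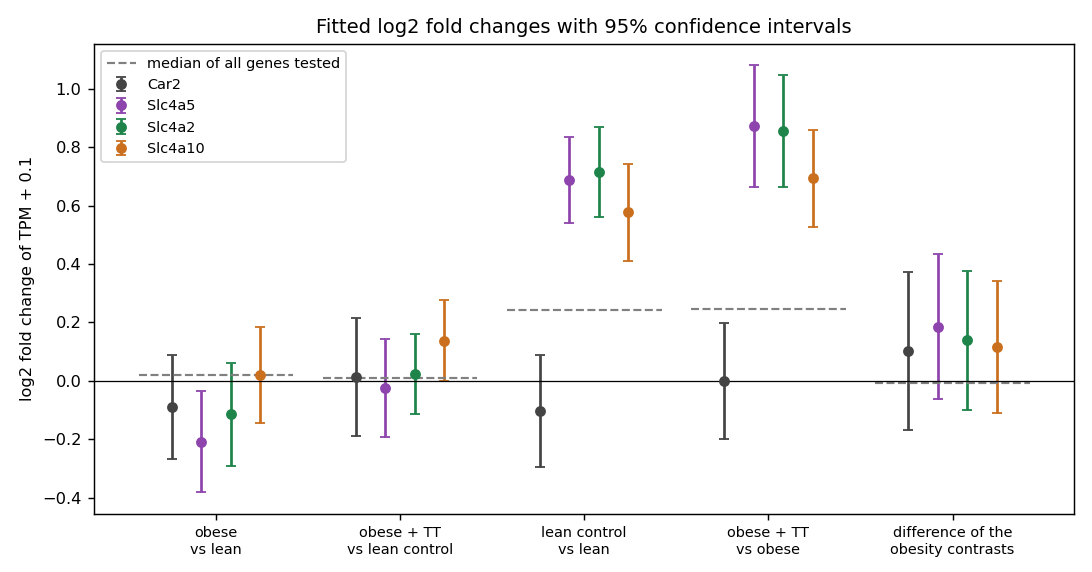
Fitted log2 fold changes of TPM + 0.1 (vertical axis) of Car2, Slc4a5, Slc4a2 and Slc4a10 in the 5 comparisons (horizontal axis), with 95% confidence intervals as bars and the median of all genes tested as dashed lines. The intervals of the transporter genes lay above 0 and above the median gene (0.24 and 0.25) in both comparisons of injected with untreated rats, and those of Car2 included 0 throughout.

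Other RNA of the tissue differed along with the transporter genes between untreated and injected rats, and the part of these differences in the levels above was not tested. The total FPKM of a library was 1108541 to 1219937 in the untreated and 920964 to 995159 in the injected rats. The summed level of 11 epithelial markers without Ttr was 7832 to 9670 TPM in the untreated and 11952 to 13627 TPM in the injected rats, and Enpp2, at a mean of 4614 TPM over the 20 rats, made up more of this sum than any other marker. Of these 11 markers, 9 and 7 were called higher in lean control against lean and in obese + TT against obese rats. Among all genes, 41.7% were called higher in each comparison. Cldn1 was called lower in both (log2 fold change -0.48 ± 0.09, limma adjusted p = 0.000701, and -0.54 ± 0.08, adjusted p = 7.9e-05) and Aqp1 was called in neither (0.13 ± 0.07 and 0.24 ± 0.13). Ttr, left out of this sum, had -0.23 ± 0.21 (limma adjusted p = 0.378) and -0.35 ± 0.13 (adjusted p = 0.0417, called lower). Of 10 endothelial and mural markers, the 2 with a symbol (Plvap and Rgs5) summed to 119 to 180 TPM in the untreated and 4.42 to 19.8 TPM in the injected rats. The 3 named of 7 stromal markers (Col1a1, Dcn and Pdgfra) summed to 107 to 150 and 51.1 to 91.0 TPM, although Pdgfra alone was higher in the injected rats. The 2 named of 10 immune markers (Cd74 and Lyz2) summed to 415 to 546 and 95.2 to 284 TPM. Gja1, the 1 named of 8 astrocyte markers, was at 4.79 to 9.12 and 1.21 to 3.39 TPM, and Rsph1, the 1 named of 7 ependymal markers, was at 63.9 to 82.1 and 60.6 to 85.5 TPM. No named marker was at 0 in all rats, and 0 of 12 neuron and 0 of 8 oligodendrocyte markers could be matched.

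Ratios of 2 genes within a rat do not depend on how its library was scaled. The ratio of Car2 to Slc4a2 was 4.55 ± 0.35 in the lean (SD, n = 6), 4.67 ± 0.82 in the obese (n = 6), 2.60 ± 0.42 in the lean control (n = 4) and 2.55 ± 0.18 in the obese + TT rats (n = 4). The lowest untreated rat (3.71) lay above the highest injected rat (3.18). The ratio of Car2 to Slc4a5 was 3.64 ± 0.34, 4.01 ± 0.85, 2.12 ± 0.38 and 2.16 ± 0.13 in the same order, again without overlap between untreated and injected rats. The ratio of Car2 to Slc4a10 was 6.81 ± 0.47, 6.38 ± 1.12, 4.28 ± 0.66 and 3.89 ± 0.08, and its untreated (lowest 5.02) and injected values (highest 5.04) just overlapped. On average the enzyme transcript stood lower against each transporter transcript in the injected rats, whichever way the libraries were scaled.

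Among the transporter genes, the ratios moved less. Slc4a5 to Slc4a2 was 1.25 ± 0.04 in the lean, 1.17 ± 0.11 in the obese, 1.23 ± 0.07 in the lean control and 1.19 ± 0.09 in the obese + TT rats, with all groups overlapping. Slc4a10 to Slc4a5, a ratio of a blood-facing to a ventricle-facing transporter, was 0.535 ± 0.040 in the lean and 0.629 ± 0.063 in the obese rats. It was 0.495 ± 0.020 in the lean control and 0.554 ± 0.038 in the obese + TT rats. The ranges overlapped in both sets, from 0.474 to 0.588 against 0.553 to 0.710 and from 0.469 to 0.517 against 0.515 to 0.588, and the higher ratio in the obese groups is given without a test.

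**Figure D3:**
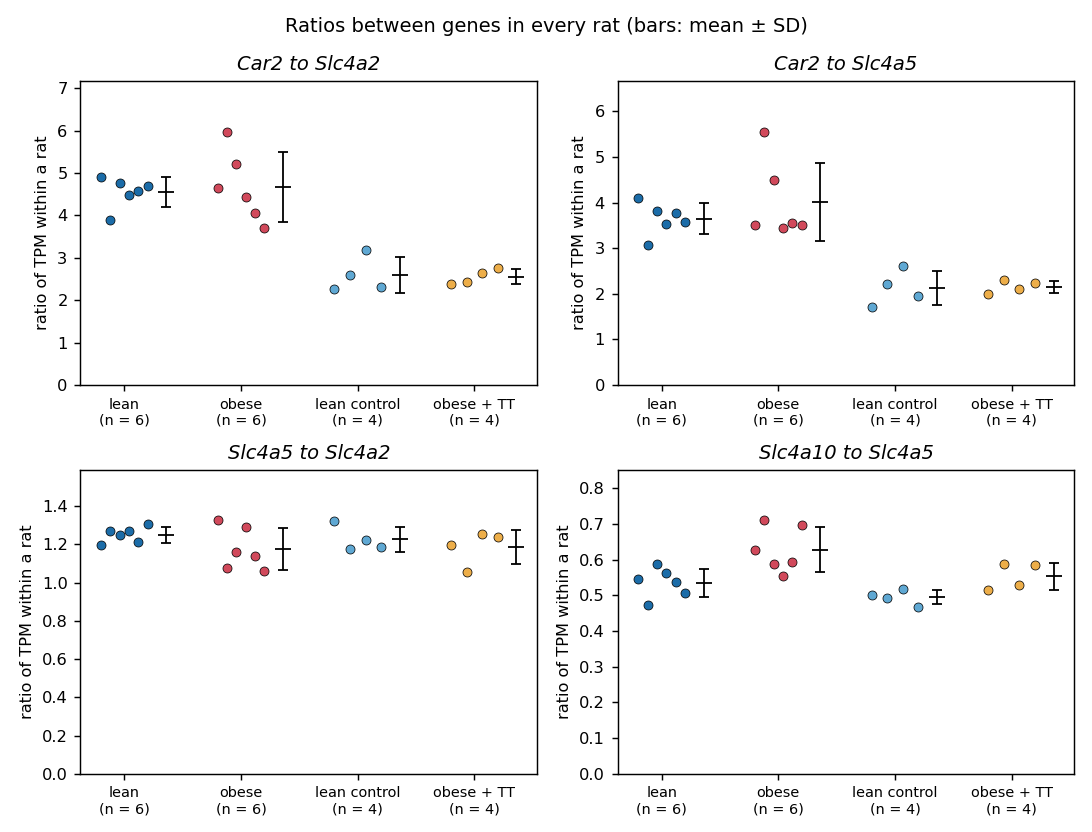
Ratios of TPM within a rat (vertical axes, from 0) for Car2 to Slc4a2, Car2 to Slc4a5, Slc4a5 to Slc4a2 and Slc4a10 to Slc4a5 in the 4 groups; points are rats and bars the mean ± SD. The ratios of Car2 to Slc4a2 and to Slc4a5 separated untreated from injected rats, while Slc4a5 to Slc4a2 overlapped in all groups.

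Within groups of the untreated set, the Pearson r of Slc4a2 with Slc4a5 and with Slc4a10 narrowly passed an adjusted p of 0.05, and no Spearman rho did. The permutation shuffled the deviations over both groups of a set and made no allowance for the subtracted group means. Its p-values are therefore too small, and whether these 2 relations would pass with such an allowance was not tested. Over the 12 untreated rats, after each group mean was subtracted, Slc4a2 and Slc4a5 had a Pearson r of 0.775 (permutation p = 0.00413, 0.0413 adjusted over 12 relations) and a Spearman rho of 0.573 (permutation p = 0.0548, adjusted 0.321). Slc4a2 and Slc4a10 had an r of 0.729 (permutation p = 0.00689, adjusted 0.0413) and a rho of 0.720 (permutation p = 0.0109, adjusted 0.131). Slc4a5 and Slc4a10 had an r of 0.607 (permutation p = 0.0335, adjusted 0.134) and a rho of 0.531 (permutation p = 0.0803, adjusted 0.321). Without the 2 rats farthest from the median of the first gene, r was 0.566, 0.507 and 0.403, so that these relations rest in part on those rats, and after leaving Ttr out of the total it was 0.759, 0.623 and 0.582. The genes of a rat share a library, so a shift in its scaling moves them together.

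No relation of Car2 with a transporter gene passed an adjusted p of 0.05, which does not show that Car2 varied independently of them. The r of Car2 in the untreated rats was 0.194 with Slc4a2, -0.09 with Slc4a5 and 0.146 with Slc4a10 (permutation p of 0.555, 0.796 and 0.643). After leaving Ttr out of the total it was -0.165, -0.278 and -0.257 in the same order. In the injected rats, the r of Car2 was -0.356, -0.311 and -0.157. In the 8 injected rats, r was 0.466 for Slc4a2 and Slc4a5 (permutation p = 0.247), 0.643 for Slc4a5 and Slc4a10 (permutation p = 0.0851) and -0.00 for Slc4a2 and Slc4a10 (permutation p = 0.963). None of the 6 relations in the injected rats passed an adjusted p of 0.05, and whether they differed from those of the untreated rats was not tested.

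**Figure D4:**
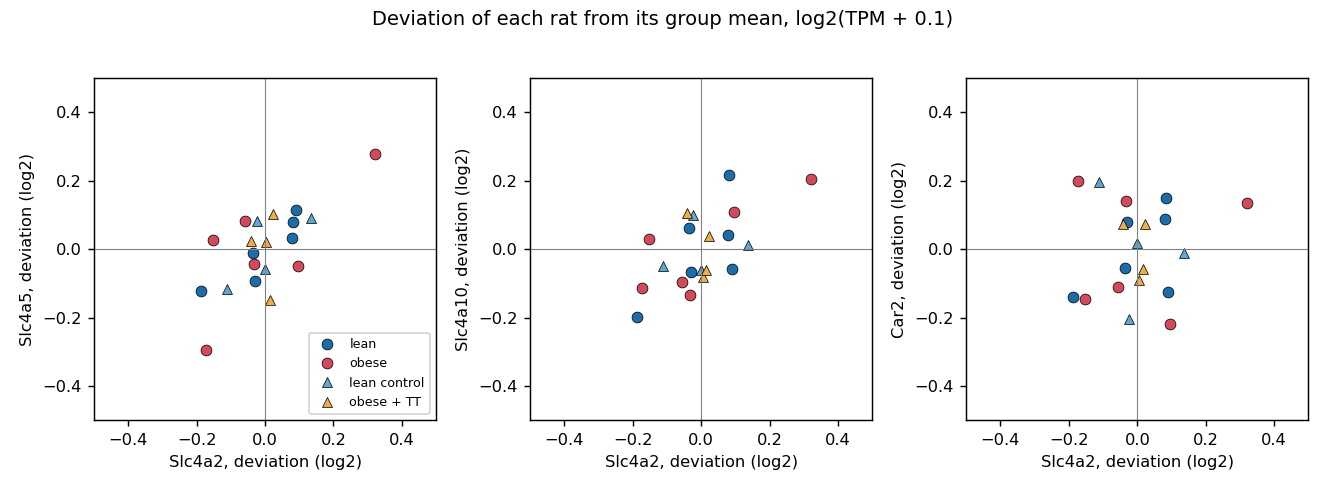
Deviation of each rat from its group mean in log2(TPM + 0.1), with Slc4a2 on the horizontal axes and Slc4a5, Slc4a10 or Car2 on the vertical axes; circles are untreated and triangles injected rats. The untreated rats rise together for the transporter genes (r of 0.775 and 0.729) and scatter for Car2 (r of 0.194).

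The genes whose levels most resembled those of the members over the 20 rats were sought among the 6472 genes averaging 10 TPM or more. As measured, the nearest with a symbol were Arhgef18 (r = 0.989) and Tbc1d9 (0.988) for Slc4a2, Iqsec1 (0.982) for Slc4a5 and Gfpt1 (0.986) for Slc4a10, and these values carry the split between untreated and injected rats. For Car2 they were Isca1 (0.839), Dynlt3 (0.827) and Fopnl (0.816). With each group mean subtracted, the nearest named gene of Slc4a5 was Slc5a5 (0.855), the iodide transporter, and those of Car2 were Trappc6b (0.901), Enkur (0.875) and Gsta1 (0.869). Seen from Slc4a2, Slc4a5 ranked 191 (r = 0.972) and Slc4a10 782 (0.949) of these genes as measured, and 477 (0.715) and 1088 (0.62) with each group mean subtracted, so many other genes followed Slc4a2 at least as closely as its relatives did.

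The other genes of bicarbonate and sodium transport were read from lists of which only some genes could be matched to an identifier by symbol. Symbols were available for 2616 of the 32883 identifiers, from the study's own supplementary tables on these data. Whether the matched genes represent their lists was not tested, which limits each count or median set here against all genes. Of the SLC4 family, 5 of 10 genes could be placed, and 4 of these 5, the members Slc4a2, Slc4a5 and Slc4a10 and the Na+-driven exchanger gene Slc4a8, were called higher in both comparisons of injected with untreated rats. Of all genes, 41.7% were called higher in each comparison, and 3 of the 4 are the members already described. The median log2 fold change of these 5 genes was 0.69 and 0.86, against 0.24 and 0.25 for all genes. These medians are the values of the members Slc4a5 and Slc4a2, so they add nothing on the rest of the family. Slc4a8 was scarce, with 0.65 ± 0.21 TPM in the lean, 0.63 ± 0.30 in the obese, 3.54 ± 0.60 in the lean control and 2.38 ± 0.55 in the obese + TT rats. It rose by 2.31 ± 0.22 and 1.84 ± 0.30 on the log2 scale (limma adjusted p of 2.9e-06 and 0.00024). The 4 obese + TT rats lay below the 4 lean control rats for Slc4a8 (log2 fold change -0.57 ± 0.19, limma adjusted p = 0.593), as did 1.66% of all genes in this comparison.

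Slc4a1, the anion exchanger of red blood cells, was named after its values were seen. It was at 0.18 ± 0.07 TPM in the lean and 0.48 ± 0.19 TPM in the obese rats, and at 0.22 ± 0.10 and 0.71 ± 0.19 TPM in the lean control and obese + TT rats. The groups did not overlap in either set, as for 0.297% and 2.37% of all genes in this direction, with limma adjusted p of 0.241 and 0.429. The 4 named of 7 erythroid markers, which include Slc4a1, summed to 3105 to 5471 TPM in the lean, 4052 to 7019 TPM in the obese, 2168 to 5768 TPM in the lean control and 4799 to 8388 TPM in the obese + TT rats. The part of red blood cells in the Slc4a1 level was not tested.

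The Na+,K+-ATPase sets the Na+ gradient that drives these transporters, and 4 of 12 subunits and regulators of the list used here had a symbol. All 4 were called higher in both comparisons of injected with untreated rats on the TPM scale, with a median log2 fold change of 0.29 and 0.40, where 41.7% of all genes were called higher in each, and 4 genes are too few to be set apart from that share. The beta subunit gene Atp1b2 rose from 94.0 ± 10.6 TPM in the lean to 187 ± 22.0 TPM in the lean control rats (log2 fold change 0.99 ± 0.10, limma adjusted p = 4.1e-06) and from 87.0 ± 9.16 TPM in the obese to 181 ± 9.89 TPM in the obese + TT rats (1.06 ± 0.08, adjusted p = 1.5e-06). The log2 fold changes in the same order were 0.33 and 0.46 for the beta subunit gene Atp1b1, 0.25 and 0.20 for the beta subunit gene Atp1b3 and 0.23 and 0.34 for the regulator gene Fxyd1, all nearer than those of Atp1b2 to the median of all genes (0.24 and 0.25). With the median ratio scaling or on the FPKM scale, 1 and 2 of the 4 genes were called higher and none lower. Of all genes, 59.2% and 57.4% were called with the median ratio scaling, and 46% and 46.6% of those called were higher. On the FPKM scale 57.9% and 56.5% of all genes were called, and 49.9% and 48.5% of those called were higher.

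Of the regulators of bicarbonate transport, 4 of 10 had a symbol and all 4 were called higher in both comparisons on the TPM scale, as were 41.7% of all genes in each. Their median log2 fold change was 0.42 and 0.48, against 0.24 and 0.25 for all genes. These were Ahcyl1, which encodes the transporter-binding protein IRBIT (log2 fold change 0.38 ± 0.07 and 0.31 ± 0.08), its relative Ahcyl2 (0.45 ± 0.09 and 0.45 ± 0.13), the kinase gene Stk39 (0.35 ± 0.06 and 0.51 ± 0.06) and the membrane-linker gene Ezr (0.50 ± 0.08 and 0.68 ± 0.07). With the median ratio scaling or on the FPKM scale, 1 and 2 of the 4 were called higher, and without Ttr in the total 4 and 2. Without Ttr, 57.7% and 55.8% of all genes were called, and 62.6% and 58.6% of those called were higher. The shares for the other scalings are those given for the Na+,K+-ATPase genes. Of the list of sodium-proton exchangers, only the scaffold genes Slc9a3r1 and Slc9a3r2 of 11 had a symbol. Slc9a3r2 was called lower in both comparisons (-0.51 ± 0.18, limma adjusted p = 0.0272, and -0.74 ± 0.12, adjusted p = 0.000299), and Slc9a3r1 was called higher in obese + TT against obese rats (0.37 ± 0.10, adjusted p = 0.0075) and had 0.18 ± 0.12 in lean control against lean rats (adjusted p = 0.220). The Slc9a3r2 call in lean control against lean rats was lost without any one of lean rats 2, 3 and 5 or lean control rats 14 and 15, and the Slc9a3r1 call was lost without Ttr in the total, with the median ratio scaling and on the FPKM scale. No gene of the 16 carbonic anhydrases other than Car2 and none of the 11 SLC26 anion exchangers had a symbol. Within the untreated and within the injected set, no gene of these lists was called.

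**Figure D5:**
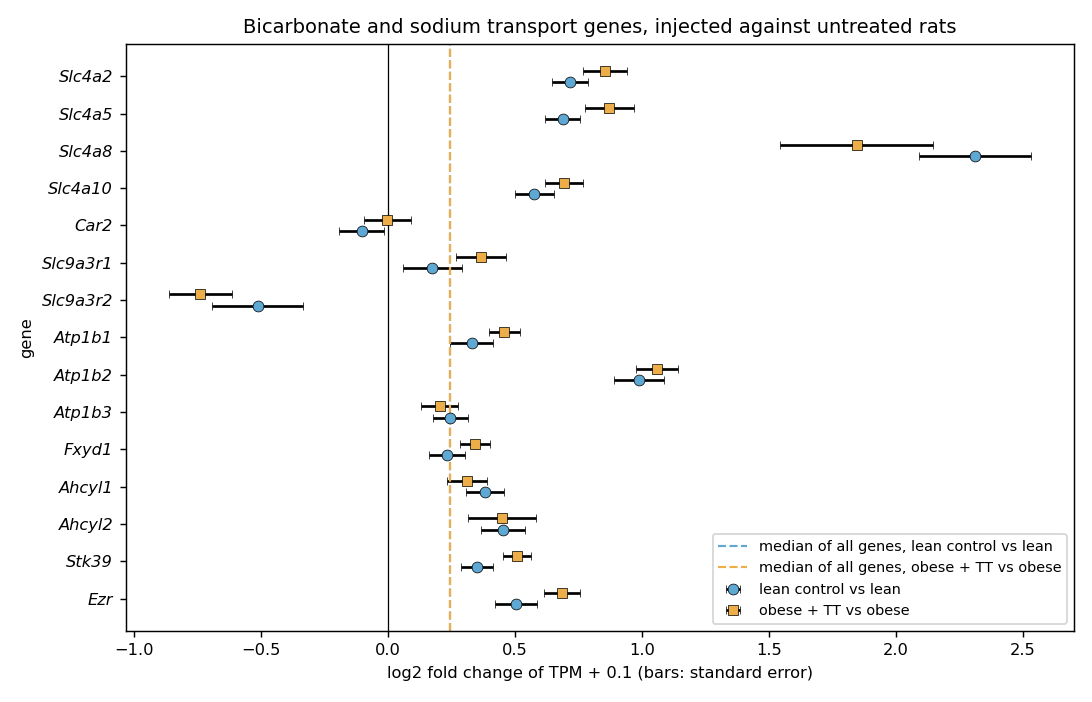
Log2 fold change of TPM + 0.1 (horizontal axis, bars are standard errors) of the named genes of bicarbonate and sodium transport (vertical axis) in lean control against lean rats (circles) and obese + TT against obese rats (squares), with the median of all genes as dashed lines (0.24 and 0.25, drawn over each other). Slc4a8, Atp1b2, Slc4a2, Slc4a5 and Slc4a10 lay to the right of the median gene in both comparisons, and Car2 and Slc9a3r2 to its left.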

How the data were processed

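RNA sequencing of choroid plexus from 20 rats was used. Per the labels and the study's methods, libraries were made with a NEBNext Ultra kit and sequenced as paired-end reads of 150 bases on a NovaSeq instrument, and reads were mapped with STAR 2.7.9a to Rnor_6.0. RSEM 1.3.3 is among the tools in the submitters' processing notes, with no role given. The authors deposited TPM values and FPKM values for 32883 Ensembl genes per rat, rounded to 2 decimals. The FPKM values are the TPM values times 1 factor per library. Read counts were not used here, so the depth behind a level is unknown and no counting intervals are given. Of the gene identifiers, 2616 were paired with symbols by the study's supplementary tables.

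Groups followed the labels. limma 3.58.1 (R 4.3.3) was fitted to log2(TPM + 0.1), using the groups of 1 comparison, or all 20 libraries for the interaction. Genes averaging under 0.1 TPM in the libraries fitted were left out, eBayes used an intensity trend, and p-values were adjusted by Benjamini-Hochberg over every gene tested, with 0.05 as the threshold of a call. Fold changes are on the log2(TPM + 0.1) scale, which understates the change of low genes. For single genes, exact permutation tests (two-sided) were added. The procedure was tested on simulated data. Named genes are the 4 members, the genes of the lists averaging 1 TPM or more or called, the 3 genes nearest to each member, and Ttr. The alternatives were another pseudocount, other minima, other scalings, other eBayes settings, all libraries in 1 fit and leaving out each rat in turn, and the counts over the lists were recomputed under them after seeing the data. One listed gene is not reported here and was left out of the counts over its list. The members and lists were chosen with earlier results of these data known. The rats carry their own numbers, and no pair of libraries shared more than 0.463% of its values. Python 3.11.15 with pandas 2.3.3 and matplotlib 3.10.9 was used for values and figures.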

Additional observations from a re-analysis of the deposited data

Results flagged for a closer look

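In 68 sets of a gene and a group of 4 or 6 rats, 1 rat far from the rest of its group was looked for with Dixon's test at its 95% critical value, and 3 were found where chance gives about 3.4. Slc4a8 was at 4.44 TPM in lean control rat 16, against 3.16 to 3.29 TPM in its group mates. Fxyd1 was at 982 TPM in lean control rat 13, against 1138 to 1148 TPM in the others of its group, and at 1037 TPM in obese + TT rat 20, against 1144 to 1159 TPM. None of the members Slc4a2, Slc4a5, Slc4a10 and Car2 held such a rat in any group.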

How the results depend on the processing

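The 20 results for single members were recomputed in 416 alternatives, of which 393 kept the direction and the side of the threshold, and the calls of Slc4a2, Slc4a5 and Slc4a10 in injected against untreated rats were among these. Car2 became called lower in lean control against lean rats without Ttr in the total (-0.21), with median ratio scaling (-0.41) and on the FPKM scale (-0.36), and in obese + TT against obese rats with median ratio scaling (-0.30) and on the FPKM scale (-0.28). These scalings reduce the shift of the median gene. The count of genes called in these comparisons was 7883 to 9129 and 7809 to 9130 under the alternatives other than leaving out a rat. Without Ttr, the sign of obese + TT against lean control turned for Slc4a2 (-0.0075) and Car2 (-0.0207), and on the FPKM scale for Car2 (-0.0009). Leaving out 1 rat gave -0.0201 to 0.0643 for Slc4a10 in obese against lean rats, -0.0121 to 0.0699 for Slc4a2, -0.0625 to 0.0256 for Slc4a5 and -0.056 to 0.077 for Car2 in obese + TT against lean control rats, and -0.0453 to 0.0383 for Car2 in obese + TT against obese rats, none of them called. Of all genes, 0 were called in obese against lean rats, but 1 with median ratio scaling, 1 on the FPKM scale, 3 with all 20 libraries in the fit and 0 to 1 when 1 rat was left out. In obese + TT against lean control rats 0 were called, but 6 with all libraries and 0 to 25 when 1 rat was left out, with 25 without lean control rat 13. For the interaction 0 were called, but 1 with a minimum of 1 TPM, 10 without Ttr, 2 with median ratio scaling, 2 on the FPKM scale, 1 with the robust option and 0 to 14 when 1 rat was left out, with 14 without lean control rat 13. The cause of these differences was not tested. No paired analysis was possible because the rats are numbered 1 to 20 and no number is shared between groups. The rounding to 2 decimals and the unknown depth limit the genes of low level such as Slc4a1 and Slc4a8, not the members.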
